A study of Mus musculus with 18 samples.

Results

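The change from the germinal vesicle stage (GV) to metaphase I (MI) was measured in mouse oocytes that lack Lsm14b. Of the 18 libraries of the series, 6 entered this comparison, 3 of Lsm14b knockout (KO) oocytes at GV and 3 of KO oocytes at MI. A gene was tested if it reached 1 FPKM in 3 or more of these 6 libraries, which 8948 of the 27874 genes in the table did. FPKM is a read number divided by exon length and by library depth, so levels can be compared between genes. Fold changes are differences in mean log2(FPKM + 1), which understate the change of low genes.

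The series holds wild-type (WT) oocytes and oocytes from Lsm14b-/- mice at both of these stages and 14 h after human chorionic gonadotropin, a time the labels denote as MII. Each library was made from 15 oocytes, and each of the 6 groups has 3 replicates. The labels give genotype and stage only. They do not give the age and strain of the mice, the time at which MI oocytes were taken, or whether each KO oocyte had reached metaphase I. Nothing states that replicates came from separate animals. The p-values therefore measure the spread between these samples, which may be technical.

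A fully grown oocyte transcribes little, and meiosis runs on mRNA it stored while growing. LSM14B is an RNA-binding protein of the cytoplasmic particles in which that mRNA is held untranslated. When meiosis resumes, some stored mRNAs gain longer poly(A) tails and are translated, often through a cytoplasmic polyadenylation element (CPE) near their 3′ end, while others lose their tails and are degraded. The cDNA here was primed with oligo(dT), so a measured level may reflect the poly(A) tail as well as the amount of mRNA. By the labels every library was made from the same number of oocytes, and FPKM is divided by library depth. A change in FPKM is therefore a change in a gene's share of its library. The amount of RNA per oocyte was not measured.

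The ends of a few transcripts are shown because the share with a CPE string, given with the transcript features, differed between genes that rose and fell. Each is a stretch of 30 bases from the last 150 bases of the annotated 3′ UTR, or from all of it where it is shorter, 5′ to 3′ on the gene's strand, with coordinates on GRCm38 (mm10). Capitals mark TTTTAT, a CPE string, and AATAAA, the letters of the polyadenylation signal. Of the 13 rises chosen by size that have an annotated 3′ UTR, 7 held a CPE string, among them Oosp3, Tmem128, Yaf2, Lef1 and Btg4.
Oosp3, chr19:11711829-11711858, plus strand: cacaacctataAATAAAacaTTTTATtgta
Tmem128, chr5:38269605-38269634, plus strand: AATAAAatatTTTTATaattttcttgtgca
Yaf2, chr15:93284278-93284307, minus strand: tcaccAATAAAatattTTTTATgacttaca
Lef1, chr3:131224319-131224348, plus strand: gtgtcaTTTTATtaagAATAAAtttgctca
Btg4, chr9:51119803-51119832, plus strand: atccctTTTTATgtctttttaaaagtttga
The largest rises with a 3′ UTR, Zfp982, Eef1e1, Zfp820, Gata3 and Ccdc69, held none, and neither did Jag1.
Gata3, chr2:9857080-9857109, minus strand: aataatAATAAAgttaaaatattttaaaac
Jag1, chr2:137081481-137081510, minus strand: cctggcAATAAAttttgaaaagtaatattt
None of the 14 falls chosen by size held one. The searched stretch was 150 bases in Timm17a and Bud31 but 82 in Ndufv1 and 34 in Rps27a, whose 3′ UTRs are that short, and a shorter stretch has less room for a match.
Bud31, chr5:145148047-145148076, plus strand: tgtaaaAATAAAacctttagacctcctcgc
Ndufv1, chr19:4007508-4007537, minus strand: ctggacAATAAAcaagtgctgtccactctc
Timm17a, chr1:135295213-135295242, minus strand: gtggaaactgAATAAAcctttgctccccaa
Rps27a, chr11:29545846-29545875, minus strand: gtatgcgttAATAAAaagaaggaactcgta

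Lsm14b itself was nearly absent from the KO libraries. It stood at 0.114, 0.234 and 0 FPKM in KO GV replicates 1 to 3, from 5, 10 and 0 reads, and at 0.126, 0.121 and 0.126 FPKM in the KO MI replicates, from 6 reads each. The WT libraries held 2.04 to 2.57 FPKM at GV and 4.99 to 11.2 at MI. Oocyte genes were high in every KO library, with Zp3 at 4860 to 8530 and Gdf9 at 1460 to 4300 FPKM. Among granulosa cell markers, Amh and Foxl2 were at most 0.0792 FPKM in the KO libraries. Others were higher, with Cyp19a1 at 1.89 to 3 FPKM, Fshr at 0.112 to 1.95 and Inha at 0 to 1.36. The blood markers Hba-a1 and Hbb-bs were at 0 in all 6 libraries. The 29 cumulus and granulosa markers in the table summed to 107 to 115 FPKM in KO GV and 124 to 140 in KO MI; 7 of them reached 1 FPKM in a KO library and 2 were at 0 in all 6. The 16 theca, stroma and endothelial markers summed to 3.24 to 6.16 and 4.02 to 4.9 FPKM, and the 12 blood and immune markers to 9.57 to 23.8 and 11.9 to 16.1. Their part in the results was not tested.

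The KO GV libraries varied more among themselves than those of any other group. The SD of deviations from the group mean, over genes and on the log2 scale, was 0.593 in KO GV and 0.275 to 0.398 in the other 5 groups. Pearson correlations across genes were 0.862 to 0.956 within KO GV and 0.961 to 0.988 within KO MI. On the first principal component of the 6 libraries, with 45.6% of the variance, KO GV replicate 2 stood at -63.2, replicate 1 at -19.9 and replicate 3 at 9.2, and the KO MI libraries at 16.1 to 31. Depth, recovered as the denominator of FPKM, was 14437127 to 15124371 in KO GV and 16468229 to 17183669 in KO MI.

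Between GV and MI, far more transcripts fell than rose in KO oocytes. By limma, 564 genes fell, or 6.3% of those tested, and 59 rose, or 0.659% (adjusted p under 0.05). The median change over all 8948 genes was -0.02. A change of at least 2-fold was found for 525 of the falls and 55 of the rises. The KO GV and KO MI values did not overlap in 558 of the falls and 57 of the rises, against 16.5% of all genes lower and 8.87% higher without overlap. Scaling moved the split: 599 fell and 115 rose after median-of-ratios scaling, 530 and 155 after quantile normalization, where the median over all genes became 0.06 and 0.1. The count rested in part on single libraries: 84 genes fell and 0 rose without KO GV replicate 1, while 495 and 79 did without KO GV replicate 2, 737 and 106 without KO GV replicate 3, 354 and 24 without KO MI replicate 1, 420 and 27 without replicate 2 of KO MI, and 653 and 183 without replicate 3 of KO MI. Of the 564 falls, 180 had a KO MI mean under 1 FPKM (31.9%, against 6.69% of all genes tested) and so needed KO GV libraries to pass the filter, which favours genes that fell. Of the 59 rises, 6 needed KO MI libraries in the same way. With a filter on the WT GV and MI libraries, added after seeing the data, 591 of 8798 genes fell and 63 rose. In no alternative did any of the 623 genes have a fitted change of the opposite sign.

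Several of the largest falls were in transcripts for the translation machinery. Eif6 encodes a factor that binds the large ribosomal subunit and keeps it from joining the small one. It stood at 57.3, 65.3 and 77.3 FPKM in KO GV and at 5.89, 8.68 and 6.28 in KO MI, a fall of 3.09 on the log2 scale (SE 0.28, adjusted p = 1.57e-06, limma). All GV values lay above all MI values, which the choice of genes by size required. Eif2b4 and Eif2b2 encode subunits of the exchange factor that recharges the initiation factor eIF2. Eif2b4 stood at 10.8, 18.1 and 12.9 FPKM in KO GV and 1.59, 1.79 and 1.19 in KO MI (log2 change -2.54, SE 0.28), and Eif2b2 at 26.5, 24.7 and 29.5 against 4.61, 4.42 and 2.25 (log2 change -2.59, SE 0.39). Eif3l, a subunit of the initiation factor eIF3, stood at 71.2, 66.5 and 71.5 FPKM in KO GV and 9.69, 10.2 and 7.33 in KO MI. Its log2 change was -2.82, and it did not pass once KO GV replicate 1 was left out (adjusted p = 0.0673, limma). Of 43 initiation and elongation factors tested, 12 fell and 0 rose (27.9% lower), and the median of the list was -0.47. The others that fell were Eef1d, Eif3g, Eif3h, Eif1ax, Eif2s1, Eef1a1, Eef1g and Eif2b5, with log2 changes of -2.28 to -1.12. Without KO GV replicate 1 the number that fell was 5, and the median of the list was again -0.47.

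Transcripts for the ribosome's own proteins fell as well. Rps27a, which encodes a fusion of ubiquitin and a small-subunit protein, stood at 86.7, 177.7 and 59.2 FPKM in KO GV and at 6.59, 3.36 and 7.77 in KO MI. Its fall of 3.89 on the log2 scale (SE 0.47, adjusted p = 3.24e-05, limma) was the largest among the genes chosen by size. Rpl19, of the large subunit, stood at 20.6, 45.8 and 17.2 FPKM in KO GV and 2.91, 1.48 and 1.78 in KO MI (log2 change -3.14, SE 0.42). Rpl21, also of the large subunit, stood at 17.1, 44.6 and 13.3 FPKM against 3.3, 2.72 and 2.71 (log2 change -2.54, SE 0.34). In all 3 genes KO GV replicate 2 was the highest library. No GV value overlapped an MI value, which the choice by size required of Rps27a and Rpl19. Rpl26 fell by 2.69 on the log2 scale. Of 73 ribosomal protein genes tested, 24 fell and 0 rose (32.9% lower), and 66 were fitted below 0, with a median of -0.92.

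The ribosomal list also set KO GV replicate 2 apart. The FPKM of its 82 genes in the table summed to 4690, 9280 and 4220 in KO GV replicates 1 to 3 and to 3520, 3160 and 3830 in KO MI. Without KO GV replicate 2, 19 members fell and the median was -0.49 where that of all genes was 0.08. Without KO GV replicate 1, 7 members fell and the median was -1.03. Over all alternatives 7 to 41 members fell. Ribosomal protein genes have processed pseudogenes of nearly the same sequence, and how reads were divided among such copies is not stated, so the level of a single member is uncertain. Rpl32, at a mean of 379.8 FPKM in KO GV and 332.1 in KO MI, had a log2 change of -0.10 (adjusted p = 0.947, limma), so the large falls were in some members of the list and not in others.

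**Figure D1:**
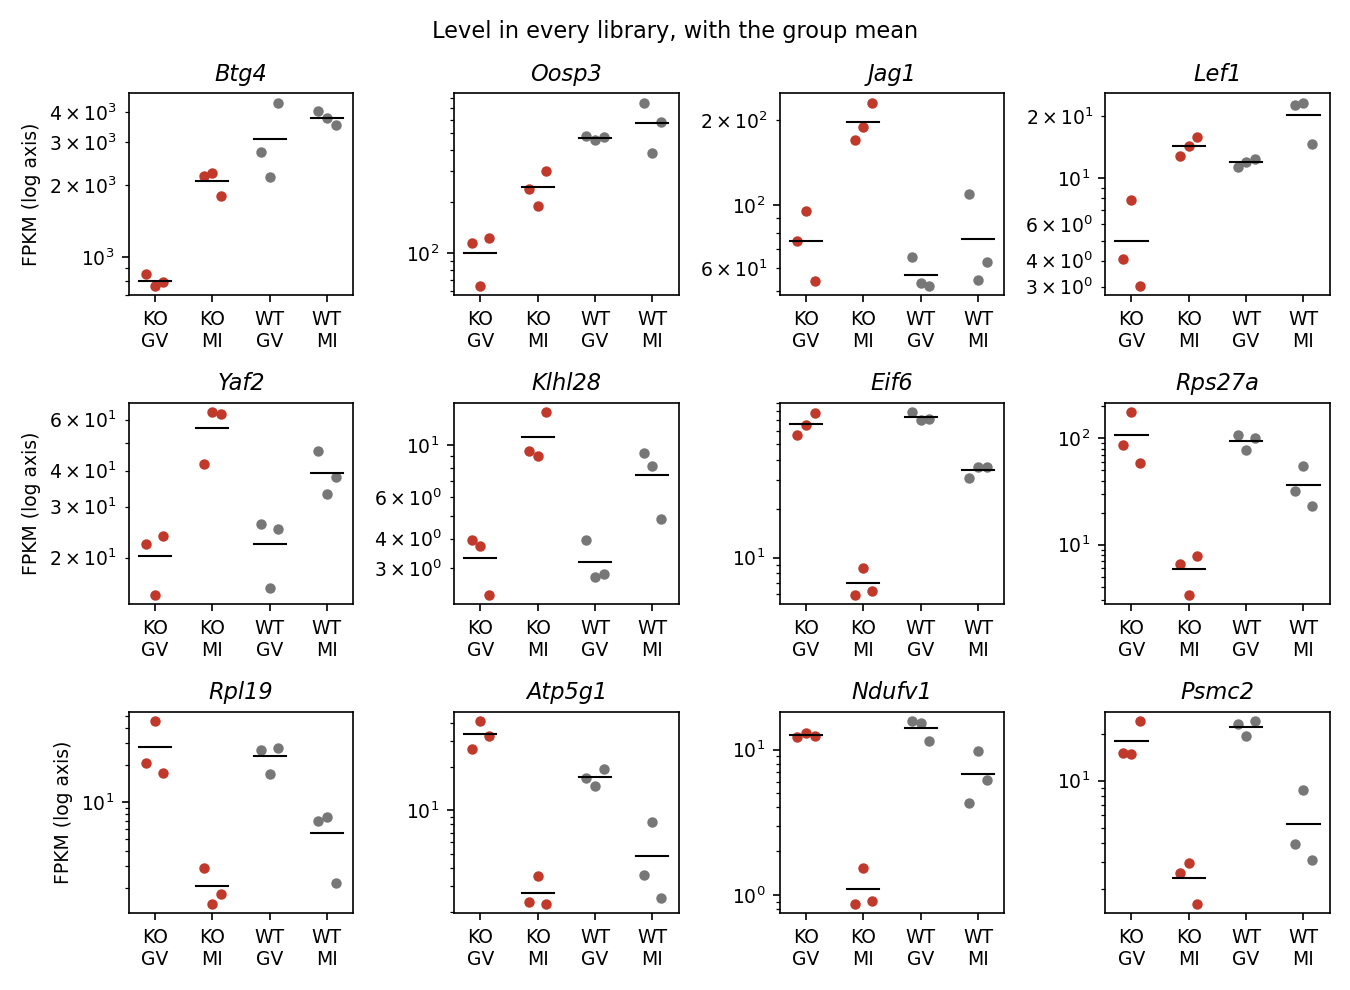
Level of 12 genes in each library, in FPKM on a log axis, for KO (red) and WT (grey) at GV and MI. Points are libraries and bars are group means (n = 3). The first 6 panels are genes that rose in KO and the last 6 genes that fell. In each panel the 3 KO GV and 3 KO MI values do not overlap, which the choice by size required of all but Psmc2.

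Nuclear genes of oxidative phosphorylation, the mitochondrial pathway that makes ATP, fell in 12 of 73 members tested and rose in 0 (16.4% lower, median -0.38). Atp5g1, which encodes subunit c of the ATP synthase, stood at 26.3, 41.5 and 32.4 FPKM in KO GV and 2.31, 3.51 and 2.26 in KO MI (log2 change -3.21, SE 0.35, adjusted p = 1.01e-05, limma). Ndufv1, a core subunit of complex I, stood at 12.2, 13.1 and 12.4 FPKM against 0.867, 1.52 and 0.913 (log2 change -2.70, SE 0.32). Its GV values were within 1 FPKM of each other, so KO GV replicate 2 did not stand out there. Other members of complex I that fell were Ndufb10, Ndufb7, Ndufa9, Ndufs8 and Ndufb11, with log2 changes of -2.31 to -1.61. Atp5o fell by 2.08 on the log2 scale, though 47.9% of its exon bases are shared with other genes. Timm17a, a part of the channel that imports proteins into mitochondria, stood at 65.1, 58.3 and 84.5 FPKM in KO GV and 9.31, 5.65 and 6.61 in KO MI (log2 change -3.11, SE 0.40). Mrps18c, of the mitochondrial ribosome, stood at 9.96, 20.3 and 13.9 FPKM against 1.02, 1.41 and 1.8 (log2 change -2.67), and 23.2% of its exon bases are shared. The oxidative phosphorylation list had 9 falls and a median of -0.16 without KO GV replicate 2. Without KO GV replicate 1 it had 6 falls and a median of -0.55.

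The mRNAs encoded by the mitochondrial genome did not share that direction. All 12 tested were fitted above 0 in KO, with a median log2 change of 0.77, but 0 passed. KO GV replicate 2 was again apart: the 13 mitochondrial mRNAs in the table summed to 7350, 1760 and 9970 FPKM in KO GV and to 8820, 9200 and 11900 in KO MI. mt-Cytb, which encodes cytochrome b, stood at 1795, 236.1 and 2907 FPKM in KO GV and 2480, 3016 and 4531 in KO MI (adjusted p = 0.114, limma), and the groups overlapped. Without KO GV replicate 2 the median of the list was 0.46. In WT 10 of the 12 rose, with a median of 1.47 beside 0.25 for all genes.

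Subunits of the proteasome, the protease that degrades ubiquitin-tagged proteins, fell in 9 of 32 members and rose in 0 (28.1% lower, median -0.67). Of the 9, 4 were ATPases of the ring that unfolds substrates. Psmc1 stood at 63.3, 60.2 and 102.2 FPKM in KO GV and 18.6, 16.3 and 10.9 in KO MI (log2 change -2.22, SE 0.34). Psmc2 stood at 15, 14.8 and 24.3 FPKM against 2.57, 2.94 and 1.61 (log2 change -2.48, SE 0.38). For both, KO GV replicate 3 was the highest library, and the GV values lay above the MI values. Psmc3 and Psmc5 fell by 1.72 and 1.48 on the log2 scale, and both calls were lost without KO GV replicate 1. Psma6, Psmb6, Psmd13, Psmd4 and Adrm1 fell with log2 changes of -1.71 to -1.08. The list had 2 falls without KO GV replicate 1, while its median was then -0.81. Of the falls, 5 of the 24 ribosomal protein genes, 3 of the 12 of oxidative phosphorylation, 1 of the 9 proteasome subunits and 1 of the 12 translation factors needed KO GV libraries to pass the filter. With the filter on WT libraries the lists had 27, 13, 8 and 11 falls. Over the 3 scalings and voom on recovered reads, the list medians were -0.98 to -0.81 for ribosomal proteins, -0.7 to -0.57 for the proteasome, -0.48 to -0.34 for translation factors and -0.49 to -0.24 for oxidative phosphorylation.

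**Figure D2:**
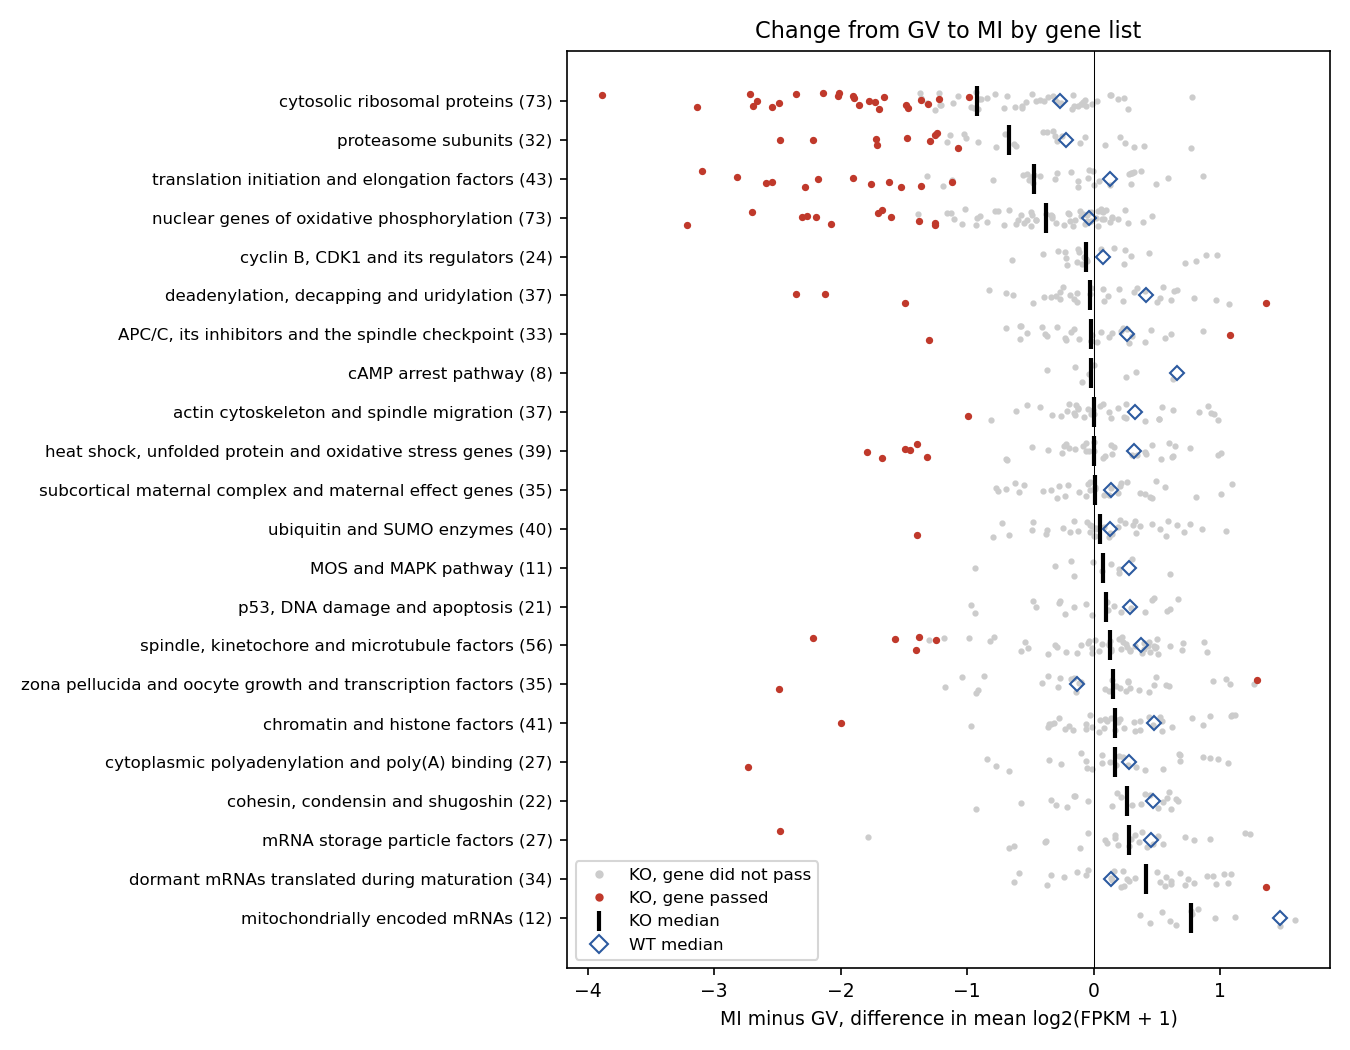
Change from GV to MI in log2(FPKM + 1) for the tested members of 22 gene lists, with the number tested in parentheses. Dots are genes in KO, red where adjusted p was under 0.05, black bars are KO medians and open diamonds WT medians; the 4 lists with the lowest KO medians are ribosomal proteins (-0.92), the proteasome (-0.67), translation factors (-0.47) and oxidative phosphorylation (-0.38).

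Of 27 storage particle factors tested 1 fell (3.7%) and 0 rose, with a median of 0.28, and of 27 genes of cytoplasmic polyadenylation and poly(A) binding 1 fell (3.7%) and 0 rose, with a median of 0.17, shares below the 6.3% over all genes. Cpsf4l, the fall of the polyadenylation list and a relative of a cleavage and polyadenylation subunit, stood at 112.9, 87.2 and 153.7 FPKM in KO GV and 20.5, 18.2 and 11.9 in KO MI (log2 change -2.73, SE 0.42). Bud31, a splicing factor in neither list, stood at 243.2, 243.3 and 371.3 FPKM against 42.1, 30.3 and 40.3 (log2 change -2.88, SE 0.43). Zar1l, an oocyte RNA-binding protein and the fall of the storage list, stood at 154.5, 218.1 and 134.9 FPKM against 30.3, 24.3 and 32.8 (log2 change -2.48, SE 0.42). The groups did not overlap in any of the 3, which the choice by size required of Cpsf4l and Bud31. Zar1l lost its call without KO GV replicate 1 (adjusted p = 0.0697, limma). Lsm14a, the paralog of Lsm14b, stood at 24.4, 13.8 and 13.5 FPKM in KO GV and 30.1, 31.7 and 35.4 in KO MI. The groups did not overlap, and the log2 change of 0.92 did not pass (adjusted p = 0.0857, limma).

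Among 37 factors of deadenylation, decapping, exosomal decay and uridylation, 3 fell (8.11%) and 1 rose (2.7%), with a median of -0.03. Over all genes tested the shares were 6.3% and 0.659%. Of the 3 falls, 1 needed KO GV libraries to pass the filter. Exosc5 and Exosc4, of the RNA exosome, fell by 2.35 and 2.12 on the log2 scale, and Cnot10, a subunit of the CCR4-NOT deadenylase, by 1.49. The one that rose was Btg4, which brings CCR4-NOT to maternal mRNAs for decay. It stood at 856.4, 761 and 786.9 FPKM in KO GV and 2177, 2231 and 1801 in KO MI (log2 change 1.36, SE 0.33, adjusted p = 0.0128, limma). The 3 GV libraries lay close together and below the MI libraries, where the lack of overlap was required by its choice by size. Exosc4, Cnot10 and Btg4 lost their calls without KO GV replicate 1, and Btg4 also without KO MI replicate 1.

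Btg4 is also one of the dormant mRNAs, which oocytes store and translate as they mature. Of 34 tested it was the 1 that rose, 0 fell, and 26 were fitted above 0, with a median of 0.41. Among all genes tested 0.659% rose, 6.3% fell and 47.8% were fitted above 0, with a median of -0.02. Dazl, which encodes a germ-cell protein that promotes translation, stood at 69.6, 53.5 and 106 FPKM in KO GV and 205.7, 161.2 and 110.7 in KO MI. The groups did not overlap, although KO GV replicate 3 and KO MI replicate 3 were close, and the log2 change of 1.06 did not pass (adjusted p = 0.0611, limma). Slbp, the histone mRNA-binding protein gene, and Plat, the tissue plasminogen activator gene, had log2 changes of 1.08 and 1.03 that did not pass. Ccnb1, or cyclin B1, and the kinase gene Mos had values of 0.72 and 0.13 that did not pass either. The FPKM of the 35 dormant mRNAs summed to 16300, 12200 and 17600 in KO GV and to 23100, 21000 and 23800 in KO MI, with no overlap.

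**Figure D3:**
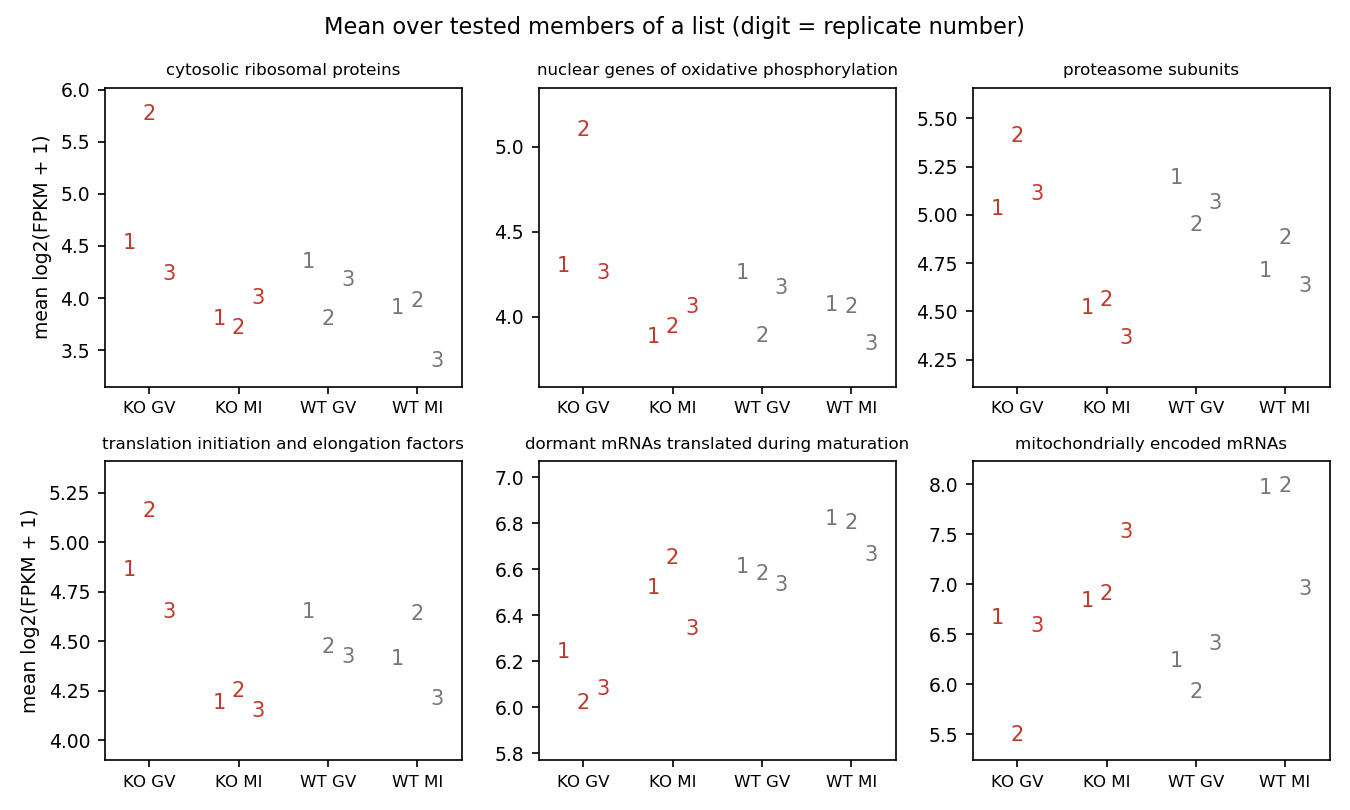
Mean log2(FPKM + 1) over the tested members of 6 gene lists in each KO (red) and WT (grey) library at GV and MI, with each library drawn as its replicate number. KO GV replicate 2 is the highest library for ribosomal proteins, at 5.77 against 4.53 and 4.23 in KO GV replicates 1 and 3, and the lowest for mitochondrially encoded mRNAs.

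The rises included transcription regulators, a Notch ligand and oocyte genes. Lef1, a transcription factor of the Wnt pathway, stood at 4.06, 7.82 and 3.02 FPKM in KO GV and 12.8, 14.2 and 15.7 in KO MI (log2 change 1.43, SE 0.30, adjusted p = 0.0044, limma). Jag1, a Notch ligand, stood at 75, 95.7 and 54.3 FPKM against 170.4, 189.2 and 229.9 (log2 change 1.40, SE 0.33). Yaf2, a partner of polycomb complex subunits, stood at 22.3, 14.9 and 23.8 FPKM against 42.1, 63.9 and 62.8 (log2 change 1.43, SE 0.32). None of the 3 overlapped between stages, which their choice by size required. Zfp982, a zinc finger gene, had the largest rise among the genes chosen by size, from 6.67, 2.55 and 6.75 FPKM to 22.9, 36.8 and 23.8 (log2 change 2.24, SE 0.45, adjusted p = 0.00338, limma). Gata3, a transcription factor, had GV values as far apart as 0.836 and 8.87 FPKM and MI values of 11.5 to 13.7. Oosp3, an oocyte-secreted protein gene, stood at 114.1, 64.4 and 123.2 FPKM against 237.4, 188.3 and 300 (log2 change 1.29, SE 0.38). The other rises chosen by size were Eef1e1, Zfp820, Trav4-3, Ccdc69, Klhl28, Tmem128 and Zfp735, with log2 changes of 1.30 to 1.71. All 14 lost the call without KO GV replicate 1. The adjusted p of Zfp982, Lef1, Yaf2 and Jag1 was then 0.107, 0.21, 0.204 and 0.277.

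Over 4 lists of the meiotic machinery, 7 of 124 tested entries passed in either direction (5.65%), close to the 6.96% over all genes. Of 24 genes of cyclin B, CDK1 and its regulators 0 passed, with a median of -0.06, and of 11 genes of the MOS and MAPK pathway 0 passed, with a median of 0.07. At an unadjusted p under 0.05, 436 genes of all those tested were higher and 1237 lower. In the anaphase-promoting complex and spindle checkpoint list, Cdc27 rose from 20.1, 12.9 and 20.7 FPKM to 39.6, 35.6 and 39.1 (log2 change 1.07, SE 0.29), and Anapc2 fell (log2 change -1.30, SE 0.34) although its KO GV replicate 3, at 2.49 FPKM, overlapped the MI values. Both encode subunits of that complex, and both calls were lost without KO GV replicate 1. Of 56 spindle, kinetochore and microtubule genes, 5 fell (8.93%, against 6.3% of all genes) and 0 rose, with a median of 0.13. Tubb4b, a beta-tubulin, stood at 232.7, 184.1 and 272.2 FPKM in KO GV and 64.8, 58.9 and 28.9 in KO MI (log2 change -2.22, SE 0.41). Tacc3, which supports spindle microtubules, and the kinetochore genes Cenpt and Spc25 fell with log2 changes of -1.57 to -1.25, as did the microtubule nucleation gene Tubgcp2. The list had 0 falls without KO GV replicate 1.

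The stress genes that passed all fell, as did most genes that passed among all those tested. Of 39 heat shock, unfolded protein and oxidative stress genes, 6 fell (15.4%) and 0 rose, with a median of 0. Over all genes tested 6.3% fell and 0.659% rose. Prdx2, a peroxiredoxin that removes peroxide, stood at 729, 864.3 and 722.5 FPKM in KO GV and 358, 274.5 and 253 in KO MI (log2 change -1.39, SE 0.29). Gpx4, which reduces lipid peroxides, the chaperone genes Hspa8, Hspa4 and Dnajb1, and Ddit3, a transcription factor of the stress response, fell with log2 changes of -1.79 to -1.32. The GV values of Ddit3, at 49.3, 131.6 and 43.6 FPKM, were highest in replicate 2, and its call was lost without that library. None of the 39 passed without KO GV replicate 1.

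Few genes passed in the oocyte lists and the remaining lists. Since 6.3% of all genes tested fell and 0.659% rose, counts this small do not set lists of this size apart. Of 35 zona pellucida and oocyte factor genes, Gja4 fell and Oosp3 rose, with a median of 0.15. Gja4, the gap junction protein that joins oocyte and granulosa cells, stood at 142.2, 154.4 and 125.7 FPKM in KO GV and 30.4, 27.5 and 16.8 in KO MI (log2 change -2.49, SE 0.47). Its call was lost without KO GV replicate 1 (adjusted p = 0.121, limma). Dcaf13, Kat8 and Arpc4 were the single falls of the ubiquitin, chromatin and actin lists, which had 40, 41 and 37 tested members and 0 rises, and their calls too were lost without KO GV replicate 1. Dcaf13 and Arpc4 needed KO GV libraries to pass the filter. In the lists of cohesin and condensin, of the cAMP pathway, of maternal effect genes and of p53 and apoptosis, with 22, 8, 35 and 21 tested members, 0 genes passed. Fshr, the follicle-stimulating hormone receptor of granulosa cells, stood at 1.18, 1.95 and 1.3 FPKM in KO GV and 0.263, 0.112 and 0.175 in KO MI. It passed the filter through KO GV alone and is given as a description.

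Genes that fell had shorter 3′ UTRs and rarely a CPE string. The last 150 bases of each annotated 3′ UTR were searched for TTTTAT and TTTTAAT on the transcript's strand, in the 7591 tested protein-coding genes with a 3′ UTR. A CPE string was present in 22 of the 43 that rose (51.2%), in 34 of the 450 that fell (7.56%) and in 26.7% of the 7098 that did not pass, against 25.7% of all. The median 3′ UTR was 1292 bases in those that rose, 373.5 in those that fell and 984.5 in the rest, and its median GC content was 36%, 48.4% and 42.6%. Length and GC content moved with the share: among genes with a 3′ UTR of at least 150 bases it was 51.2%, 9.68% and 27.8%, and among those with a GC content below 42.8%, the median, it was 53.8% (21 of 39), 12.2% (12 of 98) and 32.6%. At or above that GC content it was 25% of the 4 that rose (1 gene), 6.25% of the 352 that fell and 20.5% of the rest. AATAAA was present in 81.4%, 52.2% and 69.3%. Leaving out ribosomal protein genes changed the share in genes that fell to 7.75%. A match is a description of letters and not of a working site. No test was run on these shares.

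Seen from the sequence side, the 1954 genes with a CPE string had 22 rises (1.13%) and 34 falls (1.74%), with a median change of 0.13. The 5637 genes without one had 21 rises (0.373%) and 416 falls (7.38%), with a median of -0.09. The share that fell also went with exon length, at 11.7%, 6.69%, 3.74% and 1.58% in 4 equal classes from the shortest to the longest. Over 4 equal classes of mean level it was 6.79%, 6.26%, 5.86% and 6.3%. In WT, a CPE string was present in 36.6% of the 680 protein-coding genes that rose, 14.4% of the 229 that fell and 25% of the rest.

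**Figure D4:**
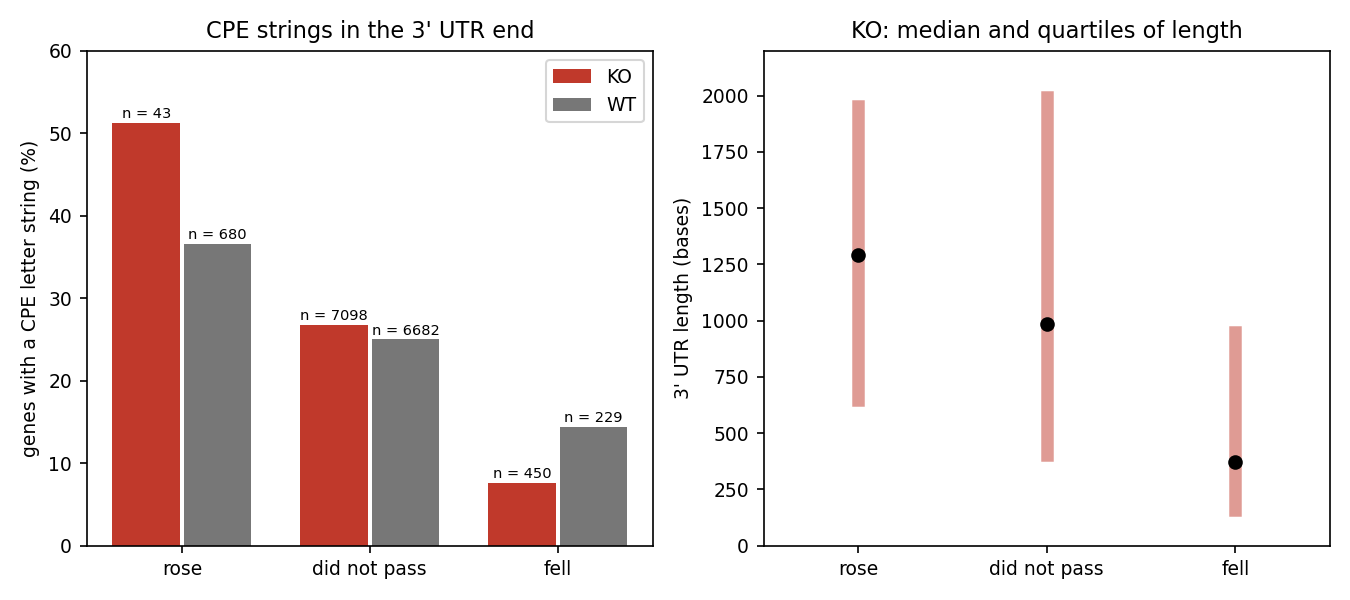
Left, the percentage of genes with a CPE string in the last 150 bases of the 3′ UTR among genes that rose, did not pass or fell from GV to MI, in KO (red) and WT (grey), with the number of genes above each bar. Right, the median (point) and quartiles (bar) of 3′ UTR length in bases for the KO groups, which is shortest in the genes that fell, at 373.5 bases.

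By gene type, 43 of 7653 protein-coding genes rose and 459 fell (6%). Of 661 pseudogenes 56 fell (8.47%), of 547 long noncoding genes 24 fell and 10 rose, and of 41 small noncoding genes 13 fell (31.7%) and 0 rose.

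WT oocytes, which share no library with the KO groups compared, were fitted in the same model over the same genes. In WT 760 genes rose (8.49%) and 314 fell (3.51%), and the median change was 0.25. That balance turned with scaling, since 241 rose and 865 fell under median-of-ratios scaling (median -0.05) and 549 and 686 under quantile normalization. Single libraries moved it too, to 0 rises and 23 falls without WT MI replicate 1, 164 and 99 without WT GV replicate 1, 167 and 200 without WT GV replicate 2, 215 and 380 without WT MI replicate 2, and 1427 and 246 without WT MI replicate 3.

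The transcripts that fell in KO mostly had WT changes of the same sign but smaller size. Of the 564 KO falls, 209 also fell in WT (37.1% of the KO falls and 66.6% of the WT falls), 0 rose, and 513 were fitted below 0. Their median change was -1.50 in KO and -0.61 in WT. Of the 59 KO rises, 14 rose in WT (23.7% of the KO rises and 1.84% of the WT rises), 0 fell, and 55 were fitted above 0, with medians of 1.29 and 0.55. These medians follow from the choice of genes by their KO change and are a description. In WT, 6225 of all 8948 genes tested were fitted above 0 (69.6%) and 2722 below 0. Over all 8948 genes the KO and WT changes had a Pearson r of 0.629 and a Spearman rho of 0.553, where genes are not independent replicates.

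**Figure D5:**
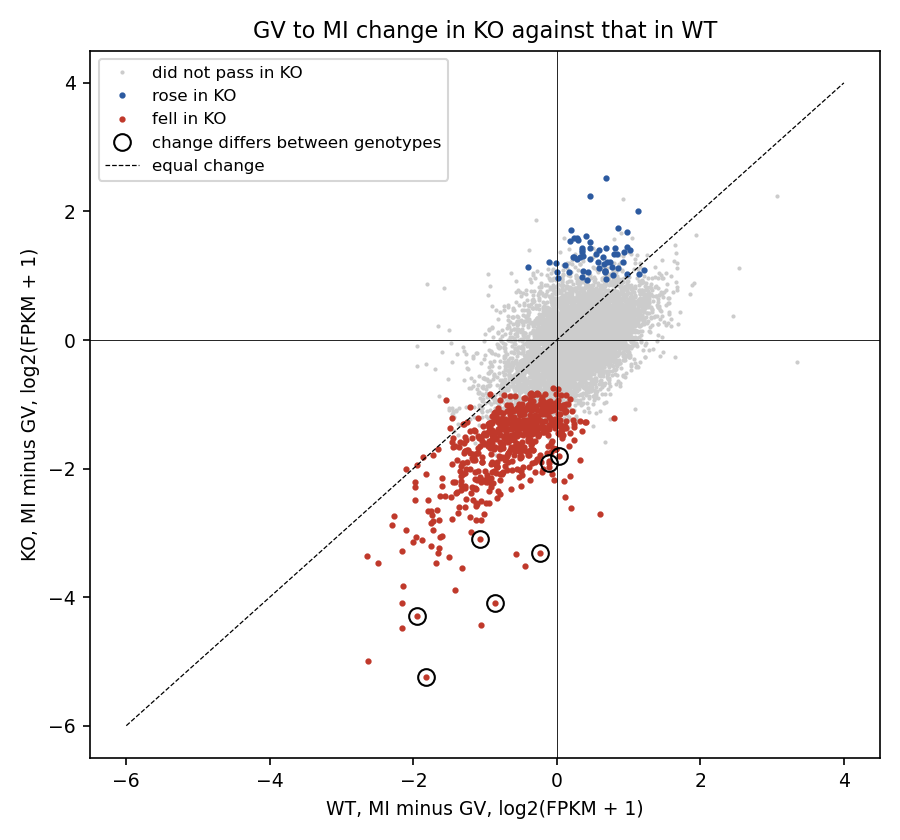
Change from GV to MI in KO (vertical) against that in WT (horizontal), both in log2(FPKM + 1), for the 8948 genes tested. Blue and red dots are the 59 genes that rose and the 564 that fell in KO, the dashed line marks equal change, and circles mark the 7 genes whose change differed between genotypes, all with a lower change in KO.

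The difference between the genotypes in the GV to MI change was itself tested. In all, 7 genes passed with a lower change in KO (0.0782%), and 0 passed in the other direction. The filter read KO libraries alone, and 6 of the 7, all but Eif6, had a KO MI mean under 1 FPKM and so needed KO GV, the group where they are high, to pass it. With a filter on the WT GV and MI libraries in its place, chosen after seeing the data, 5 were lower and 0 higher, Eif6 among them (adjusted p = 0.0263, limma). At an unadjusted p under 0.05, 798 were lower and 94 higher, and the median difference over all genes was -0.33, or 0.05 with median-of-ratios scaling. Eif6 was among the 7: WT oocytes held 73.7 ± 4.85 FPKM at GV and 34.5 ± 2.91 at MI (SD, n = 3), a log2 change of -1.08, against 66.6 ± 10.1 and 6.95 ± 1.51 in KO. The difference was -2.02 (SE 0.36, adjusted p = 0.0241, limma). By 14 h after the hormone, WT oocytes held 6.67 ± 1.25 FPKM of Eif6 and KO oocytes 3.86 ± 0.411.

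The other 6 fell outside the rule for named genes and were chosen after their values were seen, and they are given as values since the filter favoured a high KO GV level. Gm22825, an annotated microRNA locus (chr8:107842451-107842551), stood at 37.3, 48.3 and 44.6 FPKM in KO GV and 0, 0 and 0.6 in KO MI, and at 33 ± 3.02 and 8.88 ± 2.68 in WT (difference -3.42). Gm11954, a processed pseudogene, stood at 14.4, 10.7 and 7.15 FPKM in KO GV and 0, 0.5 and 0 in KO MI, while WT held 23.1 ± 0.784 and 21.2 ± 10.7 (difference -3.07). Gnmt, a glycine methyltransferase gene, stood at 2.08, 5.11 and 3.22 FPKM in KO GV and 0.151, 0.29 and 0 in KO MI, and at 0.718 ± 0.29 and 0.613 ± 0.384 in WT (difference -1.81). C130074G19Rik, Gm42553 and Gm19585 differed by -3.23, -2.34 and -1.83. The number of genes whose change was lower in KO was 0 without KO GV replicate 1, 34 without KO GV replicate 3, 3 without the first replicate of either WT group, 1 without KO MI replicate 1, and also 1 if WT MI replicate 2 was left out. Without KO GV replicate 3, 4 genes were higher.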

How the data were processed

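The authors deposited 1 table of FPKM values, which they computed, in 18 columns. The submitters' processing notes list the build mm10 and the tool DESeq2 1.38.3 and give neither a role. Of the aligner, counter, annotation and strand, each was not given in the sources used here. Per the labels' protocols, first-strand synthesis used an oligo(dT) primer, followed by Smart-seq2 amplification and shearing. FPKM times exon length gave whole reads, within 0.05 read, for 92.3% to 93.3% of nonzero values. From this step the denominator of FPKM was 14227765 to 17183669 per library. Whether it counts reads or fragments, or only those assigned to genes, is not stated. The labels mention no molecular identifiers, so reads made by PCR are not independent molecules and depth describes counting error alone. Identifiers were matched to GENCODE vM21 (27829 of 27874 found), which also gave exon lengths and 3′ UTRs. In R 4.3.3, limma 3.58.1 fitted log2(FPKM + 1) in all 18 libraries as 6 group means, with 1 weight per group, a variance trend and 12 residual degrees of freedom. No scaling was added. P-values are two-sided and adjusted by Benjamini-Hochberg over 8948 genes, with a threshold of 0.05. Group weights were used since KO GV varied most (weight 0.377, against 0.789 to 1.73).

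The members and the 25 gene lists (909 symbols, 891 in the table, 725 tested) were chosen with earlier results of these data known. The text names Lsm14b and the 14 largest rises and 14 largest falls with an adjusted p under 0.05, a mean of at least 5 FPKM in the higher group, no overlap and a symbol that is not a predicted gene, clone or pseudogene name. Up to 6 genotype differences each way by the same level and name rule, and from each list at most 4 genes, those of smallest p with a mean of at least 1 FPKM, were added. The name rule left out 16 of 51 rises and 90 of 400 falls. Of the falls chosen by size, 1 is not reported here. Other list members that passed, and members singled out in contrast, were chosen after their values were seen. Alternatives were other pseudocounts (0.1 and 5), other filters (none, or 5 FPKM), 3 scalings, other weights, only the libraries compared, a 2-fold minimum, voom on recovered reads, a replicate block and leaving out each GV or MI library in turn. A filter on the WT libraries and a fit of protein-coding genes that share few exon bases were added after seeing the data. On simulated data the fit recovered 22% of changes of 1 on the log2 scale and 82% of changes of 2. Of its calls there, 8% were false. A gene that did not pass may therefore have changed. The simulated noise was independent between genes, and changes were set only in genes with a KO GV mean above 2 on the log2 scale. In the real data KO GV libraries deviated together over many genes, and lower genes were tested too. These shares may therefore not carry over. Figures and tables used Python 3.11.15, numpy 2.4.6, pandas 2.3.3 and matplotlib 3.10.9.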

Additional observations from a re-analysis of the deposited data

Results flagged for a closer look

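The change of Eif6 from GV to MI differed between KO and WT oocytes by a test of the difference itself, with a value of -2.02 on the log2 scale (adjusted p = 0.0241 by limma, over 8948 genes). In each genotype all 3 MI values lay below all 3 GV values, which in KO the choice of genes by size required. The value ranged from -2.17 to -1.53 over the alternatives, and it did not pass with median-of-ratios scaling (-1.53, adjusted p = 0.158), with only the libraries compared (adjusted p = 0.059), or without any 1 of WT GV replicate 1 or 2, WT MI replicate 1, 2 or 3, KO GV replicate 1 or KO MI replicate 1 (adjusted p from 0.0527 to 0.485).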

How the results depend on the processing

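In KO, rises and falls numbered 266 and 1002 with equal weights, 1235 and 2199 with 1 weight per library, 115 rises with median-of-ratios scaling, 155 with quantile normalization, 39 with a pseudocount of 5, 28 with no filter, 37 among protein-coding genes with under 10% shared exon bases (chosen after seeing the data), and 321 falls with a filter at 5 FPKM. All 623 calls were among those of the fit with equal weights, and 443 remained with only the libraries compared. Voom on recovered reads gave 51 and 532. In WT, rises and falls were 272 and 205 with equal weights, 1575 and 659 with 1 weight per library, 47 and 86 with no filter, 312 and 201 at 2-fold, 241 and 865 with median-of-ratios scaling, and 686 falls with quantile normalization. Genes with a lower change in KO than in WT were 892 (137 higher) with 1 weight per library, 2 with a pseudocount of 0.1, 3 with median-of-ratios scaling or quantile normalization, 1 with only the libraries compared, 4 with voom and 3 among the protein-coding genes. Without a filter 1 was higher. Without 1 library, KO rises ranged from 0 to 183 and falls from 84 to 737, WT rises from 0 to 1427 and falls from 23 to 381, and differences from 0 to 4 higher and 0 to 34 lower. Of 57 named calls, 22 held in every alternative in which the gene was tested, 16 of them in all 20, and none reversed. No library of the MII time was left out. The cause of these shifts was not tested.

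With the replicate number as a block, 64 genes rose and 564 fell in KO, 1084 and 366 in WT, and 0 and 5 differed between genotypes. Deviations of KO GV and KO MI replicates with the same number correlated at 0.0816, -0.253 and -0.38, and those of WT at 0.278, 0.0438 and -0.114. KO pairs with different numbers ranged from -0.38 to 0.419. With sizes this similar, the values cannot show whether libraries of the same number share a source, and the labels do not say. Genes near 1 FPKM rest on few reads, since a single read over 1 kb of exon was worth 0.0582 to 0.0703 FPKM.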
